A study of Arabidopsis thaliana with 34 samples.

Results

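The leaves of Arabidopsis thaliana carry 2 large classes of coloured or ultraviolet-absorbing flavonoids, anthocyanins and flavonols, and 4 genes that act in making these molecules were followed through sub-zero acclimation. The genes are DFR (AT5G42800, probe set 249215_at), UF3GT (AT5G54060, probe set 248185_at), UGT75C1 (AT4G14090, probe set 245624_at) and UGT78D1 (AT1G30530, probe set 261804_at). They were chosen by name, as probe sets annotated to these single genes, with earlier results of these data known. They are 4 of the 22746 probe sets tested. The platform annotation lists AT4G14090 by its locus number only, and UGT75C1 is the usual name of that locus.

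The plants were 3 natural accessions, Columbia-0 (called Col here), Rschew (Rsch) and Tenela (Te). They were grown for 42 days under a 16-h day, at 20 °C by day and 18 °C by night, with light of 200 µmol. They were then cold acclimated for 14 days at 4 °C with light of 90 µmol. Leaves were cut from the cold acclimated plants and held at -3 °C in darkness, supercooled in tubes with water, and were collected after 8 h, after 1 d or after 3 d. Col, Rsch and Te leaves at each of these 3 times were set against leaves of intact cold acclimated plants of the same accession, which makes 12 groups. Each group had 3 ATH1 arrays, apart from 2 each for Col after 8 h and Col after 3 d, and each of the 34 arrays came from a pool of 3 leaves of 3 plants.

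Flavonoids are made from phenylalanine through a shared core of enzymes that ends in dihydroflavonols, from which the flavonol and anthocyanin branches part. DFR reduces dihydroflavonols and so commits them to the anthocyanin branch. Glycosyltransferases (UGTs) then attach sugars, which make the pigments stable and let them be stored in the vacuole. In Arabidopsis leaves anthocyanins build up in cold, in strong light and when sugars are plentiful, and a complex of MYB, bHLH and WD-repeat proteins switches on the late genes of the branch.

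Values are log2 intensities, so a difference of 1 is a doubling of signal, and they are comparable between arrays for a probe set but not between probe sets. Sub-zero leaves were detached and dark while cold acclimated leaves were on the plant and lit by day, so temperature, darkness and detachment cannot be told apart. In these whole-leaf RNA pools fewer cells that express a gene and less of its RNA per cell cannot be told apart either. The leaf markers RCA and PRK of carbon fixation had 11.1 to 12.9 and 8.63 to 11.8 on all arrays, and LHCB4.2, an antenna protein, had at least 6.23. Of the markers listed for other tissues, those with a named probe set were SPCH of the stomatal lineage, PYK10 of roots, BAN of the seed coat and AMS of anthers. They reached at most 3.57, 3.89, 5.42 and 3.59.

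Some arrays stood apart. A score was formed from 100 probe sets that were higher and 100 that were lower at 3 d than at 1 d. These were picked in Col and Rsch, leaving out the 11 flavonoid genes with a probe set named for that gene alone. The score lay between 0.07 and 0.47 on all 3 d arrays of Col and Rsch and between -2.29 and -1.72 on their 1 d arrays. The array labelled Te 3 d replicate 1 scored -1.68, and the array labelled Te 1 d replicate 1 scored 0.48. The other Te arrays scored 0.23 and 0.29 at 3 d and -1.87 and -1.76 at 1 d, so these 2 arrays go against their labels. The Te 8 h arrays scored -2.29 to -1.65, so the score does not tell 1 d from 8 h. The 2 arrays were kept under their labels, and results are also given without them. In addition, the bioC spike-in controls were low (mean 7.05) on 9 arrays, namely replicate 1 of each cold acclimated, 1 d and 3 d group, and high (mean 8.34) on the other 25.

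**Figure D1:**
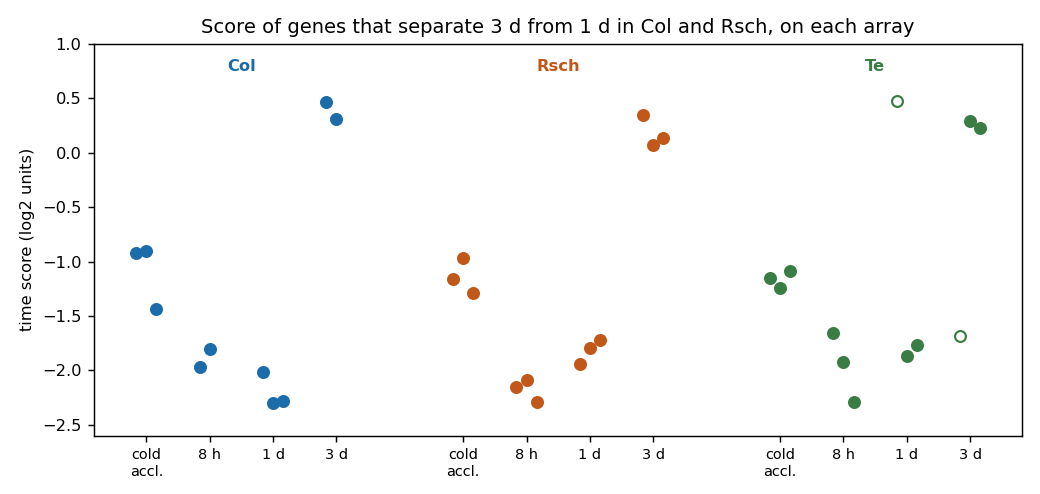
Time score on each array (y axis, difference of mean log2 intensities of 100 and 100 probe sets), by accession and condition on the x axis. Each point is 1 array. Open points are replicate 1 of the Te 1 d group (0.48) and replicate 1 of the Te 3 d group (-1.68), which lie apart from the other arrays of their groups. The score does not tell 1 d from 8 h.

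All 4 genes were lower after 3 d at -3 °C than in cold acclimated leaves, averaged over the 3 accessions. The signal of UGT75C1 was 15.3% of its cold acclimated level, that of UGT78D1 26.8%, that of DFR 29.6% and that of UF3GT 38.8%. At 8 h UGT78D1 alone, 1 of 4 genes, passed the test as lower (an adjusted p under 0.05), where 2.59% of all probe sets did. At 1 d it was 2 of 4, UGT75C1 and UGT78D1, with 15.5% of all probe sets. At 3 d 4 of 4 passed, with 21% of all probe sets. Because the genes were chosen with earlier results of these data known, these counts describe them and are no separate evidence. The median change of the 4 genes was -0.38 at 8 h, -1.08 at 1 d and -1.83 at 3 d, while the median of all probe sets was at most 0.03 away from 0 at each time. RMA gives the arrays a shared distribution, which by itself holds the median of all probe sets near 0.

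**Figure D2:**
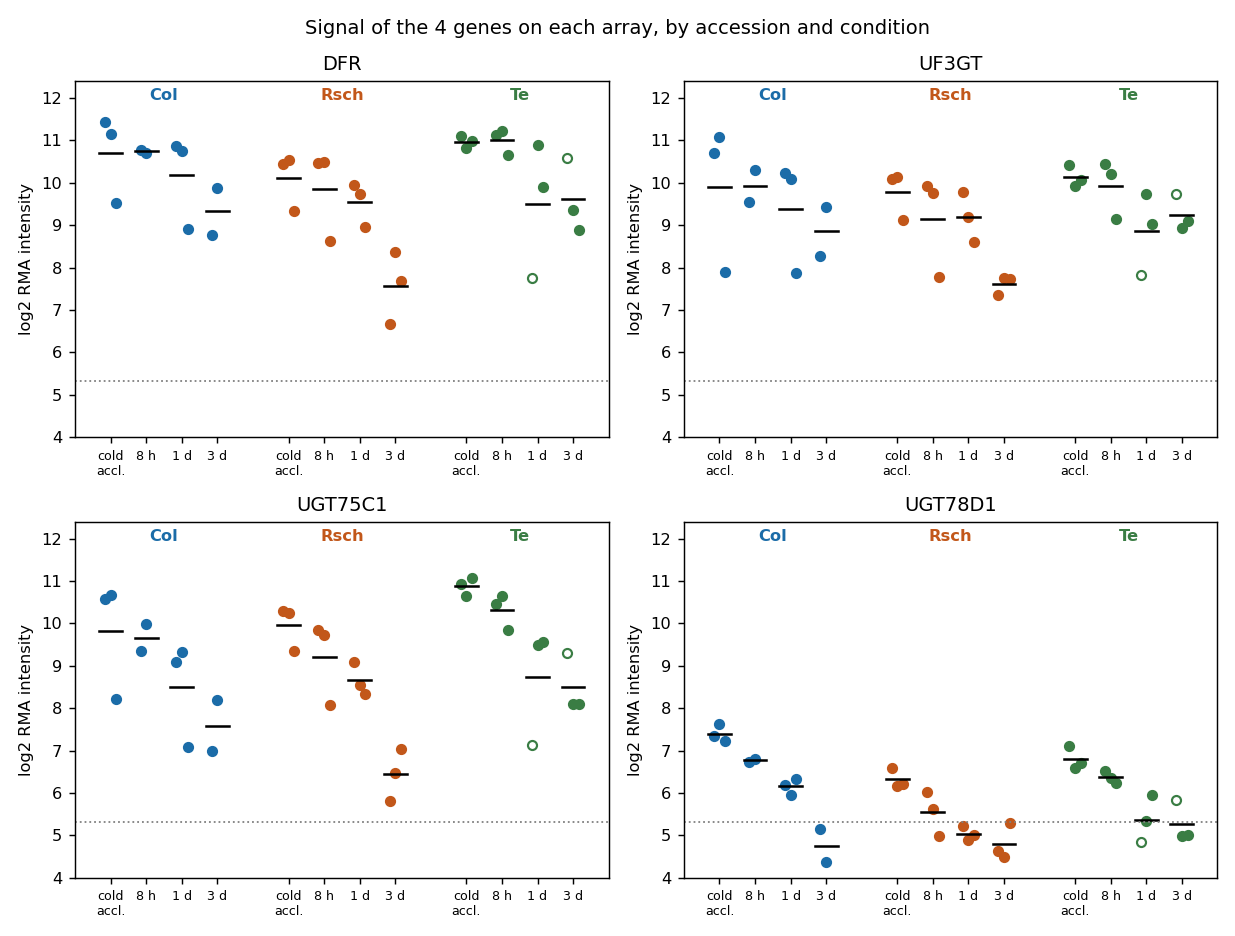
Log2 RMA intensity (y axis) of DFR, UF3GT, UGT75C1 and UGT78D1 on each of the 34 arrays, by accession and condition on the x axis. Points are arrays, black bars are group means, open points are the 2 Te arrays that go against their labels, and the dotted line is the 40th percentile of all values (5.32). The group means at 3 d lie below the cold acclimated ones in each accession, and of the 4 genes only UGT78D1 reaches the dotted line.

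DFR is the enzyme that opens the anthocyanin branch. In Col its log2 intensity was 11.43, 11.14 and 9.51 in cold acclimated leaves, 10.78 and 10.71 after 8 h, 10.86, 10.75 and 8.91 after 1 d, and 8.76 and 9.89 after 3 d, with arrays in replicate order. In Rsch it was 10.45, 10.53 and 9.35 in cold acclimated leaves, 10.46, 10.49 and 8.63 after 8 h, 9.95, 9.74 and 8.94 after 1 d, and 6.66, 8.37 and 7.69 after 3 d. In Te it was 11.10, 10.82 and 10.97 in cold acclimated leaves, 11.13, 11.22 and 10.65 after 8 h, 7.75, 10.88 and 9.89 after 1 d, and 10.60, 9.35 and 8.88 after 3 d. The 8 h arrays overlapped the cold acclimated ones in each accession, although Rsch 8 h replicate 3 and Te 8 h replicate 3 lay below all of theirs. The 3 d arrays lay below every cold acclimated array in Rsch and Te but not in Col, where cold acclimated replicate 3 was low. The array labelled Te 1 d replicate 1 was the lowest Te array. Averaged over accessions, the differences of DFR from cold acclimated leaves were -0.05 ± 0.41 at 8 h (SE; adjusted p = 0.95 in limma) and -0.85 ± 0.39 at 1 d (adjusted p = 0.119), which did not pass. Their 95% intervals ran from -0.90 to 0.79 and from -1.66 to -0.04. Without Te 1 d replicate 2, which is not a doubted array, the 1 d change was -1.08 and passed (adjusted p = 0.04485). Without the doubted Te 1 d replicate 1 the 1 d change was smaller, -0.55, and did not pass. At 3 d DFR changed by -1.76 ± 0.41 (adjusted p = 0.001445), and by -1.92 ± 0.36 without the 2 doubted Te arrays.

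UF3GT acts later in the branch and adds xylose to a glucose that anthocyanins already carry. In Col it had 10.71, 11.07 and 7.90 in cold acclimated leaves, 9.55 and 10.30 after 8 h, 10.22, 10.10 and 7.86 after 1 d, and 8.27 and 9.44 after 3 d. In Rsch it had 10.10, 10.13 and 9.13 in cold acclimated leaves, 9.92, 9.75 and 7.77 after 8 h, 9.78, 9.19 and 8.60 after 1 d, and 7.36, 7.76 and 7.73 after 3 d. In Te it had 10.43, 9.93 and 10.06 in cold acclimated leaves, 10.44, 10.20 and 9.14 after 8 h, 7.82, 9.73 and 9.03 after 1 d, and 9.73, 8.93 and 9.09 after 3 d. Its cold acclimated Col arrays were the most spread of any group of the 4 genes (SD 1.74, n = 3), with replicate 3 about as low as the 1 d array of the same number. The Rsch 3 d arrays lay close together and below every other Rsch array. Averaged over accessions, the values at 8 h (-0.27 ± 0.42, adjusted p = 0.731 in limma) and 1 d (-0.79 ± 0.40, adjusted p = 0.158) did not pass the test. At 3 d UF3GT fell by 1.37 ± 0.42 on the log2 scale (SE; adjusted p = 0.01219). The 3 d call was lost among the 25 arrays with high spike-in controls, where the change was -0.97 ± 0.55 (adjusted p = 0.189), and without Col 3 d replicate 1 (-1.17, adjusted p = 0.05001). Without Col cold acclimated replicate 3 the 1 d change was -1.12 and passed (adjusted p = 0.01993).

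UGT75C1 adds glucose to the A ring of anthocyanins and showed the largest mean change of the 4 genes. In Col its log2 intensity was 10.57, 10.68 and 8.22 in cold acclimated leaves, 9.34 and 9.99 after 8 h, 9.08, 9.33 and 7.09 after 1 d, and 6.98 and 8.19 after 3 d. In Rsch it was 10.30, 10.24 and 9.36 in cold acclimated leaves, 9.84, 9.72 and 8.07 after 8 h, 9.08, 8.55 and 8.33 after 1 d, and 5.81, 6.47 and 7.05 after 3 d. In Te it was 10.93, 10.66 and 11.07 in cold acclimated leaves, 10.45, 10.64 and 9.85 after 8 h, 7.14, 9.48 and 9.56 after 1 d, and 9.31, 8.09 and 8.11 after 3 d. The 3 d arrays lay below every cold acclimated array of their accession in all 3 accessions, although in Col only just, at 8.19 against 8.22 on the low replicate 3. In Te every sub-zero array, from 8 h on, was below the cold acclimated ones. Averaged over accessions the difference was -0.49 ± 0.40 at 8 h (SE; adjusted p = 0.483 in limma), where the test was not passed, and -1.60 ± 0.39 at 1 d (adjusted p = 0.003137). At 3 d the mean was 7.51 against 10.22 in cold acclimated leaves, a change of -2.71 ± 0.40 (adjusted p = 1.058e-05). Without the 2 doubted Te arrays the 1 d change was -1.33 ± 0.35 (adjusted p = 0.007113) and the 3 d change -2.85 ± 0.37 (adjusted p = 2.311e-06).

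UGT78D1, which attaches rhamnose to flavonols and not to anthocyanins, was the gene of the 4 with the tightest replicates and the earliest call. In Col it had 7.35, 7.63 and 7.23 in cold acclimated leaves, 6.73 and 6.80 after 8 h, 6.20, 5.94 and 6.34 after 1 d, and 5.16 and 4.36 after 3 d. In Rsch it had 6.59, 6.17 and 6.22 in cold acclimated leaves, 6.03, 5.61 and 4.99 after 8 h, 5.23, 4.88 and 5.02 after 1 d, and 4.62, 4.48 and 5.28 after 3 d. In Te it had 7.10, 6.58 and 6.72 in cold acclimated leaves, 6.51, 6.35 and 6.24 after 8 h, 4.84, 5.34 and 5.95 after 1 d, and 5.84, 4.99 and 5.01 after 3 d. In each accession, every array at each sub-zero time lay below every cold acclimated array, and Col cold acclimated replicate 3, low for the other 3 genes, was close to its group mates. Averaged over accessions the change was -0.62 ± 0.17 at 8 h (SE; adjusted p = 0.0285 in limma), -1.32 ± 0.16 at 1 d (adjusted p = 1.615e-06) and -1.90 ± 0.17 at 3 d (adjusted p = 1.314e-08). The 8 h call was lost with quantile normalization (-0.54, adjusted p = 0.0698) and among the 25 arrays with high spike-in controls (-0.53, adjusted p = 0.0799). It was also lost without any of 7 single arrays, namely Col cold acclimated replicate 2, Col 8 h replicate 1 or 2, Rsch or Te cold acclimated replicate 1 and Rsch or Te 8 h replicate 3, with -0.52 to -0.63 and adjusted p of 0.0543 to 0.0911. No cold acclimated array lay under the 40th percentile of all values, 5.32, but 1 of 8 arrays at 8 h, 4 of 9 at 1 d and 7 of 8 at 3 d did. The fall at 3 d was thus measured into the dim range of the array.

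The step between successive sub-zero times was tested as well. From 8 h to 1 d UGT78D1 fell by 0.70 ± 0.17 on the log2 scale (adjusted p = 0.01349 in limma), and it was the only gene of the 4 to pass, with 2.61% of all probe sets lower. UGT75C1 had 8.63 at 1 d against 9.73 at 8 h, a difference of -1.10 ± 0.40 (adjusted p = 0.116). From 1 d to 3 d 0 of 4 genes passed in limma, with 2.18% of all probe sets lower at the same threshold. An unadjusted p under 0.05 was found for 3 of the 4, but the share of all probe sets at that looser threshold was not counted. The differences were -0.91 ± 0.41 for DFR, -0.58 ± 0.42 for UF3GT, -1.12 ± 0.40 for UGT75C1 and -0.58 ± 0.17 for UGT78D1, with adjusted p of 0.215, 0.498, 0.11 and 0.0512. Without the 2 doubted Te arrays the step was -1.37 ± 0.37 for DFR (adjusted p = 0.01673), -1.52 ± 0.38 for UGT75C1 (adjusted p = 0.01038) and -0.76 ± 0.16 for UGT78D1 (adjusted p = 0.002458). UF3GT did not pass there at -0.83 ± 0.44 (adjusted p = 0.26). UGT78D1 from 1 d to 3 d passed under 16 of 46 alternatives, among them quantile normalization (adjusted p = 0.04537) and leaving out dim probe sets (adjusted p = 0.03755), which kept all Te arrays. With array weights DFR (-1.24, adjusted p = 0.02823) and UGT75C1 (-1.34, adjusted p = 0.01312) passed as well.

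**Figure D3:**
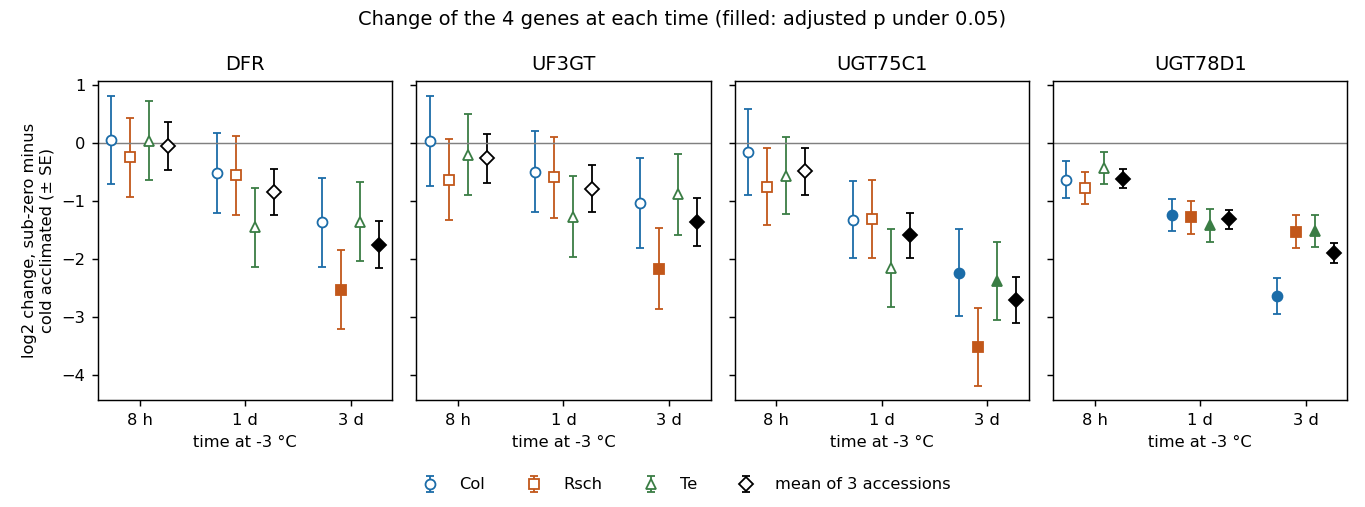
Log2 change from cold acclimated leaves (y axis, ± SE from the fit) after 8 h, 1 d and 3 d at -3 °C (x axis), in each accession and as the mean of the 3. Filled symbols passed the test at an adjusted p under 0.05. The means at 3 d are filled for all 4 genes, and UGT78D1 has the shortest error bars.

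Within single accessions each change rested on 2 or 3 arrays a group, and calls were fewer. At 8 h 0 of 4 genes passed in Col, Rsch or Te in limma, with 0.0484%, 0.4% and 0.0396% of all probe sets lower. Only UGT78D1 in Rsch had an unadjusted p under 0.05 at that time, with a change of -0.78 ± 0.28. At 1 d UGT78D1 was the 1 gene of 4 that passed in each accession. It changed by -1.24 ± 0.28 in Col, by -1.28 ± 0.28 in Rsch and by -1.43 ± 0.28 in Te. Among the arrays with high spike-in controls the change in Te was -1.01 and did not pass (adjusted p = 0.0713). Of all probe sets, 4.48% were lower at 1 d in Col, 2.99% in Rsch and 1.37% in Te. At 3 d 2 of 4 passed in Col, 4 of 4 in Rsch and 2 of 4 in Te, with 9.86%, 5.39% and 8.01% of all probe sets lower.

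Rsch leaves at 3 d had the lowest group means of DFR, UF3GT and UGT75C1 among all 12 groups. DFR had 7.57 ± 0.86 there (SD, n = 3) against 10.11 ± 0.66 in cold acclimated Rsch leaves, a change of -2.53 ± 0.68 (SE; adjusted p = 0.01904 in limma). UGT75C1 had 6.44 ± 0.62 against 9.97 ± 0.53, a change of -3.52 ± 0.67 (adjusted p = 0.001748), so that the signal was 8.71% of the cold acclimated level. UF3GT had 7.61 ± 0.22 against 9.78 ± 0.57, a change of -2.17 ± 0.70 with an adjusted p of 0.04921, close to the threshold. That call of UF3GT was lost under 28 of the 47 alternative settings. The call of DFR in Rsch was lost without replicate 1 or 2 of the cold acclimated or replicate 1 or 3 of the 3 d arrays (-2.08 to -2.59, adjusted p of 0.0555 to 0.0787). It was also lost when only arrays with high spike-in controls were fitted (-1.91, adjusted p = 0.106). In Col, UGT75C1 changed by -2.24 ± 0.75 (adjusted p = 0.04223), but by -1.25 among the arrays with high spike-in controls (adjusted p = 0.386), and the call was lost without cold acclimated replicate 1 or 2 or either 3 d array (-1.63 to -2.85, adjusted p of 0.1 to 0.242). DFR (-1.37 ± 0.76, adjusted p = 0.236) and UF3GT (-1.04 ± 0.78, adjusted p = 0.398) did not pass in Col. In Te, UGT75C1 changed by -2.38 ± 0.67 (adjusted p = 0.01926), while DFR (-1.36 ± 0.68, adjusted p = 0.21) and UF3GT (-0.89 ± 0.70, adjusted p = 0.474) did not pass. DFR in Te passed with array weights (-1.66, adjusted p = 0.01787). Without Te cold acclimated replicate 3 or Te 3 d replicate 2 or 3 the call of UGT75C1 in Te was lost (-2.17 to -2.29, adjusted p of 0.0731 to 0.0925). UGT78D1 passed in all 3 accessions. Its change was -2.64 ± 0.31 in Col, and -1.53 ± 0.28 in Rsch was close to -1.52 ± 0.28 in Te. Without the 2 doubted arrays the Te changes at 3 d were -1.85 ± 0.64 for DFR, -1.13 ± 0.77 for UF3GT, -2.78 ± 0.66 for UGT75C1 and -1.80 ± 0.27 for UGT78D1.

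A moderated F test in limma asked whether a gene changed by a different amount in Col, Rsch and Te. At 8 h, 1 d and 3 d 0 of 4 genes passed, with 0.0044%, 0.0264% and 0.0308% of all probe sets called. At 3 d UGT78D1 had an unadjusted p of 0.02124 and no other of the 4 genes was under 0.05 at any time. The larger fall of UGT78D1 in Col at 3 d thus did not hold up after adjustment. Its change in Rsch minus that in Col was 1.11, with a 95% interval of 0.24 to 1.98. At 3 d the means of UGT78D1 were nearly the same, 4.76 in Col and 4.80 in Rsch. Every 3 d array of both groups lay under the 40th percentile of all values. In cold acclimated leaves the means were 7.40 in Col and 6.33 in Rsch. Between Rsch and Col the difference between the changes thus lay in the starting level. The change in Te minus that in Col was 1.12, with a 95% interval of 0.25 to 1.99. There the means differed from those of Col at both ends, with 6.80 in cold acclimated Te and 5.28 in Te at 3 d. Whether a floor of the signal limited the falls was not tested. For UGT75C1 the change at 3 d in Rsch minus that in Col was -1.28. Its interval ran from -3.35 to 0.78, too wide to say that the accessions acted alike.

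In cold acclimated leaves, before any sub-zero exposure, UGT78D1 was lower in Rsch than in Col, 6.33 ± 0.23 against 7.40 ± 0.20 (SD, n = 3 each). The difference was -1.08 ± 0.28 (SE; adjusted p = 0.02229 in limma), and the arrays did not overlap. It was the 1 gene of 4 that passed between Rsch and Col, where 2.8% of all probe sets were lower. The call was lost without Col replicate 1 or 2 and without Rsch replicate 2 or 3, where the difference was -0.96 to -1.10 and the adjusted p 0.0587 to 0.0945. UGT75C1 had 10.88 ± 0.21 in Te against 9.82 ± 1.39 in Col, but 1.06 ± 0.67 was within the spread of the Col arrays (adjusted p = 0.451). Between Te and Col 0 of 4 genes passed in limma, with UGT78D1 at an unadjusted p under 0.05 and 2.86% of all probe sets lower. Between Te and Rsch 0 of 4 passed in limma, none of the 4 had an unadjusted p under 0.05, and 1.68% of all probe sets were lower. The probes follow the Columbia-0 sequence, so a lower signal in another accession can be a lower level or a poorer match, which cannot be told apart here.

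Over the 12 groups the order of the means was led by Te for the 3 anthocyanin genes. DFR was highest in Te at 8 h, just above cold acclimated Te (10.97), UF3GT and UGT75C1 were highest in cold acclimated Te (10.14 and 10.88), and UGT78D1 in cold acclimated Col (7.40). For DFR the only gap between neighbours in the order above the pooled SD of 0.89 was the last, of 1.75, between Col at 3 d and Rsch at 3 d. For UF3GT it was the same pair, with a gap of 1.24 against a pooled SD of 0.91. For UGT75C1 the last 2 gaps, of 0.91 from Col at 1 d to Col at 3 d and of 1.14 from there to Rsch at 3 d, passed a pooled SD of 0.87. UGT78D1 had 3 gaps above its pooled SD of 0.36, of 0.60 below cold acclimated Col, of 0.40 below Col at 8 h and of 0.61 below Col at 1 d. All other neighbours differed by less than the spread within groups.

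The rest of the flavonoid pathway was looked at through a list of 64 genes, from phenylalanine to the finished pigments and their regulators, of which 11 had a probe set named for that gene alone. The other 53, among them the usual activators of the branch, were not analysed here. At 8 h 1 of the 11 was lower and 10 did not pass. At 1 d 2 were lower and 1 higher, where 9.73% of all probe sets were higher. At 3 d 8 were lower, 2 higher, where 15.9% of all probe sets were, and 1 did not pass, with a median change of -1.36. These counts include the 4 genes above. The list was also chosen with earlier results of these data known, so the counts are a description only.

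CHIL, a chalcone isomerase-like protein that aids the first steps of the core, had 4.88 and 6.23 in Col leaves after 3 d, against 7.29, 8.04 and 6.19 in cold acclimated ones. Averaged over accessions it had 5.65 at 3 d against 7.01 in cold acclimated leaves, a change of -1.36 ± 0.29 (adjusted p = 0.0006106 in limma). UGT78D2, which adds glucose to flavonols as well as to anthocyanins, had 8.42 at 3 d against 9.38, a change of -0.96 ± 0.32 (adjusted p = 0.02198). AT5MAT, a malonyltransferase that decorates anthocyanins after UGT75C1, had 6.43 against 7.60, a change of -1.17 ± 0.41 (adjusted p = 0.02811). Both were low on Col cold acclimated replicate 3, at 7.49 and 5.27, as DFR, UF3GT and UGT75C1 were. Neither passed among the 25 arrays with high spike-in controls, where UGT78D2 changed by -0.67 (adjusted p = 0.245) and AT5MAT by -0.69 (adjusted p = 0.351). Both calls were also lost without Col cold acclimated replicate 1 or 2 or Col 3 d replicate 1, with adjusted p of 0.0511 to 0.0898, and without Col 3 d replicate 1 the count of lower pathway genes was 5. That of AT5MAT was lost as well without Rsch cold acclimated replicate 1 or 2 or Te 3 d replicate 3 (limma adjusted p of 0.05095 to 0.06408). At 1 d CHIL (-0.62 ± 0.28) and AT5MAT (-0.88 ± 0.40) did not pass, but did so without Col cold acclimated replicate 3 (-0.78 and -1.20, adjusted p = 0.03523 and 0.01161).

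AT1G06000, listed on the flavonol side, changed late. It had 4.86, 4.63 and 5.36 in Rsch after 3 d against 8.04, 6.45 and 6.52 after 1 d, with no overlap. Its mean over accessions was 5.45 at 3 d and 6.88 at 1 d, a difference of -1.43 ± 0.37 (adjusted p = 0.03069 in limma). Against cold acclimated leaves it changed by 0.17 ± 0.37 at 8 h, -0.25 ± 0.35 at 1 d and -1.68 ± 0.37 at 3 d, and only the last passed (adjusted p = 0.0008097). The array labelled Te 1 d replicate 1 had 4.88 and the array labelled Te 3 d replicate 1 had 7.22, so these 2 arrays run against the rest of their groups for this gene too.

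UGT78D3, which adds arabinose to flavonols and is a close relative of UGT78D1 and UGT78D2, went the other way. In Col it had 5.79, 6.02 and 5.05 in cold acclimated leaves, 5.37 and 5.45 after 8 h, 6.83, 6.58 and 6.35 after 1 d, and 7.35 and 7.44 after 3 d. Every 1 d and 3 d Col array was thus above every cold acclimated one. In Rsch the 3 d arrays had 7.60, 8.06 and 7.63 against 7.09, 5.81 and 5.31 in cold acclimated leaves, and in Te 6.45, 5.52 and 6.22 against 5.25, 5.12 and 5.55. Averaged over accessions UGT78D3 rose by 0.77 ± 0.26 at 1 d (adjusted p = 0.03067 in limma) and by 1.41 ± 0.27 at 3 d (adjusted p = 0.0002065), where UGT78D1 fell by 1.32 ± 0.16 and 1.90 ± 0.17. The 1 d call was lost without the 2 doubted Te arrays (0.66, adjusted p = 0.0695) and among the 25 arrays with high spike-in controls (0.70, adjusted p = 0.1196). Without any of 8 single arrays the 1 d change was 0.64 to 0.74 and did not pass. In Te alone the 3 d change of 0.76 ± 0.45 did not pass in limma (adjusted p = 0.307). Of the cold acclimated arrays 4 of 9 lay under the 40th percentile of all values, so the rise began in or near the dim range.

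HYH, a bZIP factor related to the light-signalling factor HY5, was the only regulator on the list with a named probe set. Its change was 1.02 ± 0.33 at 3 d (adjusted p = 0.01774 in limma) and 0.80 ± 0.32 at 1 d, which did not pass (adjusted p = 0.0695). Col cold acclimated replicate 3 had 4.46, against 7.96 and 7.71 on the other 2 arrays of that group. Without that array the 3 d change was 0.64 and still passed (adjusted p = 0.01552), but the 3 d call was lost when the fit held only the arrays compared (adjusted p = 0.05236), where 1 pathway gene was higher. The 1 d change passed under 5 alternatives, with each array centred on its median, with a random block, and without Col cold acclimated replicate 1, Col cold acclimated replicate 2 or Col 1 d replicate 2 (0.80 to 1.01, adjusted p of 0.01747 to 0.04108). Without Col cold acclimated replicate 3, the low array, the 1 d change was only 0.42 and did not pass. BAN, the anthocyanidin reductase of the seed coat that leads to proanthocyanidins, did not pass at any time. It stayed between 4.61 and 5.42 on all 34 arrays, near or under the 40th percentile of all values, and changed by 0.11 ± 0.11 at 3 d.

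**Figure D4:**
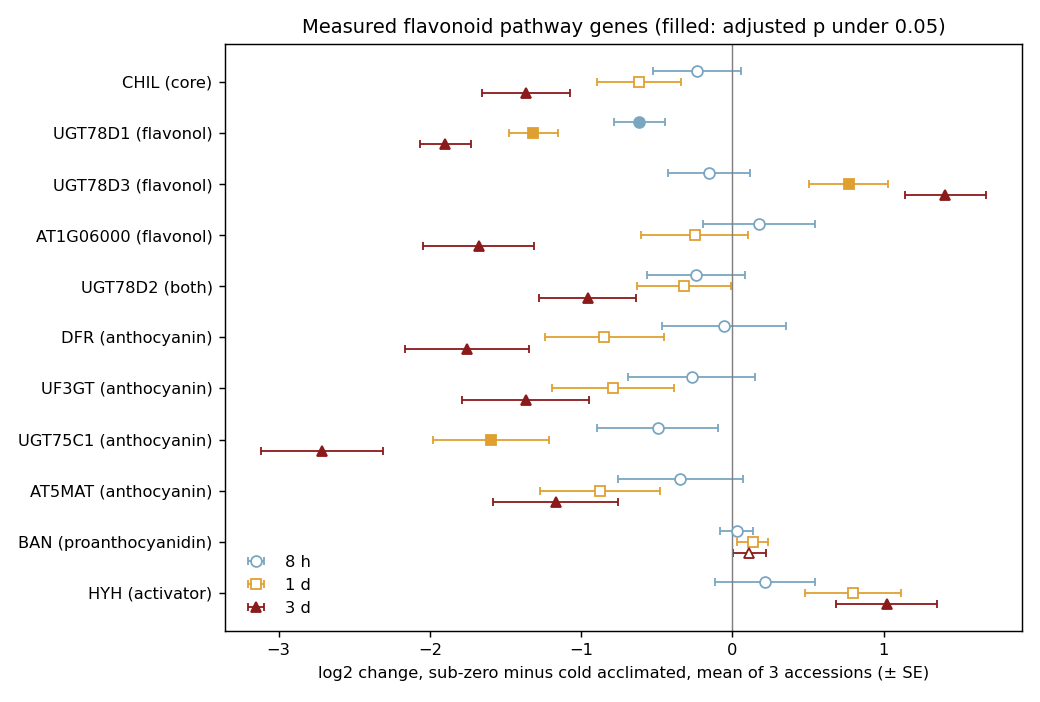
Log2 change from cold acclimated leaves, averaged over the 3 accessions (x axis, ± SE), for the 11 pathway genes with a named probe set (y axis, with the branch in brackets) after 8 h, 1 d and 3 d. Filled symbols passed the test. At 3 d 8 genes lie to the left of 0, UGT78D3 and HYH lie to the right, and BAN stays at 0.11.

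UGT75C1, UGT78D1 and UF3GT belong to the large family of UDP-glycosyltransferases, which act on hormones, defence compounds and xenobiotics as well as on flavonoids. Only genes whose symbol starts with UGT were counted here, so family members under other symbols were left out. UF3GT, with -1.37 ± 0.42 at 3 d, was among those left out. Of 48 measured genes with a UGT symbol, UGT75C1 and UGT78D1 included, 3 were lower at 8 h and 1 higher, where 3.36% of all probe sets were higher. At 1 d 8 were lower and 8 higher. At 3 d 7 were lower, 13 higher and 28 did not pass, with a median change of 0.14. UGT75C1 had the lowest change of the 48 at 3 d. Leaving UGT75C1 and UGT78D1 aside, the 3 lowest genes with a UGT symbol were UGT71B1 (-2.07 ± 0.26), UGT88A1 (-1.10 ± 0.26) and UGT78D2. The 3 highest were UGT85A2 (1.46 ± 0.27), UGT78D3 and UGT76B1 (1.22 ± 0.29), an enzyme that glucosylates salicylic acid.

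The profile of each gene over the 12 group means was set against those of 3753 probe sets of a single gene whose group means spanned at least 1 log2 unit. The profile most like that of DFR was UF3GT (r = 0.977), followed by AT2G32160 (0.958) and AT5G59670 (0.956). For UF3GT it was DFR (0.977), then UGT78D2 (0.944) and AT5G59670 (0.940). The profiles most like that of UGT75C1 were AT5MAT (0.959), AT2G28310 (0.951) and AT2G32160 (0.949). For UGT78D1 they were AT4G30993 (0.966), AT1G19485 (0.947) and AT5G02710 (0.947), none of which is on the flavonoid list. Among the 4 genes r ran from 0.924 to 0.977 between the 3 anthocyanin genes and from 0.810 to 0.825 between UGT78D1 and these. The 12 means share arrays between genes, and a decline with time is common to all of these profiles.

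Replicates of a group differed widely for DFR, UF3GT and UGT75C1, and they differed in the same way. The deviation of each array from its group mean was correlated between the genes over the 34 arrays. Between UGT75C1 and UF3GT Pearson's r was 0.936 and Spearman's rho 0.893 (permutation within groups, p = 4e-05 for each). Between DFR and UGT75C1 r was 0.920 (permutation p = 8e-05) and rho 0.866 (p = 0.00019), and between DFR and UF3GT r was 0.875 and rho 0.881 (p = 1e-05 for each, the smallest that the permutations can give). Of 6 such pairs these 3 had adjusted p of at most 0.00016 for r and 0.00038 for rho. With UGT78D1 the other 3 pairs had r of 0.353 to 0.472 and rho of 0.314 to 0.478, with adjusted permutation p of 0.063 to 0.14 for r and 0.047 to 0.18 for rho.

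The 3 high correlations held at 0.860 to 0.927 without the 2 arrays farthest out, at 0.886 to 0.953 without the 2 doubted Te arrays, and at 0.849 to 0.959 within the 25 arrays with high spike-in controls. Those of UGT78D1 dropped to 0.10 to 0.27 without the Te arrays. Correlations above 0.8 with the deviations of DFR were found for 23 of the 22745 other probe sets, with those of UGT75C1 for 27 and with those of UF3GT for 49, but for 0 with those of UGT78D1. The deviations also differed by replicate number. Arrays numbered 3 lay below their group mean in 7 of 10 groups for DFR, 7 of 10 for UGT75C1 and 8 of 10 for UF3GT, on average by -0.56, -0.43 and -0.69. With the mean of each number taken out as well, r was 0.823 to 0.955 between the 3 anthocyanin genes and 0.528 to 0.629 between UGT78D1 and these. The difference between the 3' and 5' actin control probe sets, a sign of RNA quality, was 1.74 ± 0.30 in cold acclimated leaves (SD, n = 9), 1.44 ± 0.18 at 8 h (n = 8), 1.65 ± 0.40 at 1 d (n = 9) and 1.86 ± 0.49 at 3 d (n = 8), and its part in these results was not tested. It went with the spike-in set, with a mean of 2.21 on the 9 arrays with low controls and 1.48 on the 25 with high ones. No 8 h array was in the low set, so the means by condition mix time with spike-in set.

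**Figure D5:**
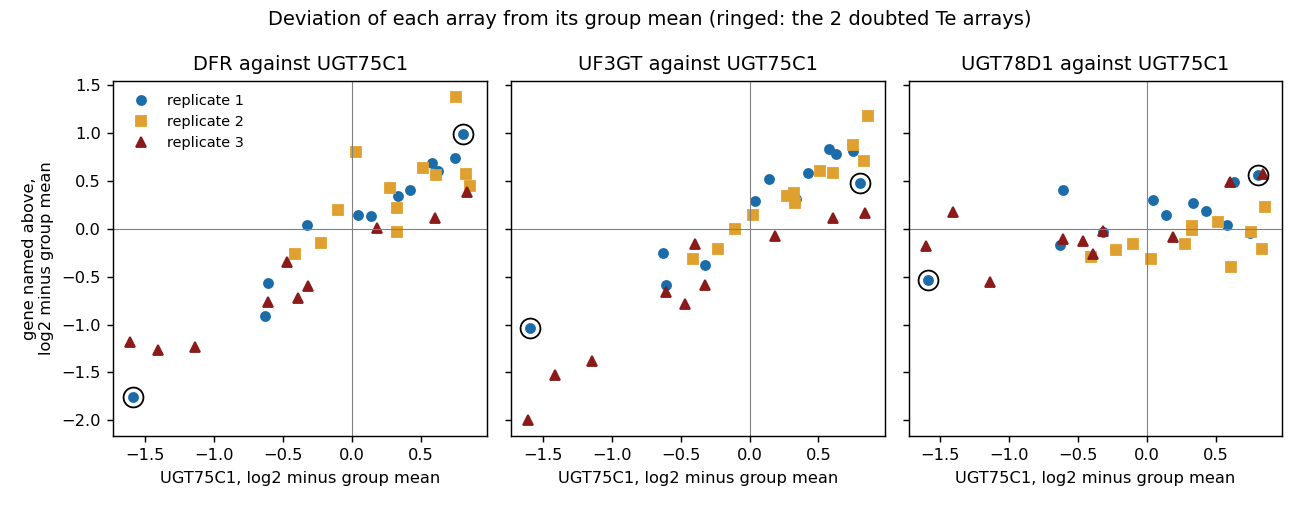
Deviation of each array from its group mean (log2) of DFR, UF3GT and UGT78D1 (y axes) against that of UGT75C1 (x axis), with 1 point for each of the 34 arrays, marked by replicate number. Rings mark the 2 doubted Te arrays. DFR and UF3GT follow UGT75C1 closely (r = 0.920 and 0.936), and UGT78D1 does so loosely (r = 0.472).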

How the data were processed

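The authors deposited log2 intensities per probe set, summarised with RMA per the submitters' processing notes; its version is not given in the sources used here. The log2 scale was inferred from the spread of the deposited values. RMA shares a distribution across arrays, and the array medians were 5.97 to 6.22, so a change is relative to the bulk of all probe sets. Titles gave each array its accession and condition. The labels describe 3 independent biological replicates, and for the third cold acclimated ones another label gives the number as 2, where the title was followed. No 2 arrays held identical values.

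Of 22810 probe sets, 64 controls were left out and 22746 tested without a filter. The platform annotation gave 1 gene for 13513, several for 503 and none for 8730, and symbols were updated by locus through RefSeq names of assembly TAIR10.1, without coordinates. All 34 arrays entered a linear model with 12 group means in limma 3.58.1 (lmFit and eBayes, R 4.3.3; 22 residual degrees of freedom). Two-sided p-values were adjusted by Benjamini-Hochberg over all tested probe sets of a contrast, and those under 0.05 were called. The code was tested on simulated data. Averages over accessions weight them equally. Correlations of deviations used 1e+05 permutations of arrays within groups. Plots were drawn with Python 3.11.15 and matplotlib 3.10.9.

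Alternatives were leaving out dim probe sets (every group mean under the 40th percentile, 5.32), quantile normalization, centring arrays on their median, array weights, the replicate number or accession and replicate as a block, eBayes with trend and robust settings, only the arrays compared, the spike-in set as a block or the larger set alone (split at 7.81), and leaving out single arrays or the 2 doubted Te arrays. Leaving out these 2 together with the replicate block was added after seeing the data. The members, the pathway list and the alternatives were chosen with earlier results of these data known. Named were the members, each pathway gene with its own probe set, the 3 highest and 3 lowest other genes with a UGT symbol at 3 d and the 3 profiles most like each member. The number of arrays limits the precision.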

Additional observations from a re-analysis of the deposited data

Results flagged for a closer look

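BAN, the seed coat anthocyanidin reductase, was singled out at 8 h because both Col arrays lay above the cold acclimated mean of Col while all 3 Te arrays lay below that of Te. The change in Col minus that in Te was 0.27. This difference was not tested by that comparison of signs, and limma's F test over the 3 accessions gave an adjusted p of 0.9999. BAN was dim on nearly all arrays.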

How the results depend on the processing

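The calls of UGT75C1 at 1 d and of DFR, UGT75C1 and UGT78D1 at 3 d, averaged over accessions, kept their direction and their side of the threshold under all 47 alternatives, as did that of UGT78D1 at 1 d. The 2 weaker calls did not. UGT78D1 at 8 h was -0.54 with quantile normalization (adjusted p = 0.0698), -0.56 with a block for the level of the spike-in controls (adjusted p = 0.0679), -0.53 in the larger spike-in set (adjusted p = 0.0799) and -0.70 to -0.52 without single arrays, and UF3GT at 3 d was -0.97 in the larger spike-in set (adjusted p = 0.189) and -1.70 to -1.17 without single arrays. UF3GT at 1 d passed with array weights (-0.83, adjusted p = 0.04903), and lay at -1.12 to -0.54 without single arrays. DFR at 1 d lay at -1.08 to -0.55. The cause was not tested for any of these.

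Changes that did not pass the test turned sign as follows. DFR at 8 h was 0.0022 with each array centred on its median, 0.15 in the larger spike-in set and -0.25 to 0.15 without single arrays. BAN at 8 h was -0.0048 with quantile normalization and -0.0446 to 0.0893 without single arrays. UGT78D3 at 8 h was 0.0056 with the same block, 0.0334 in the larger spike-in set and -0.31 to 0.0257 without single arrays. With array weights DFR at 8 h was -0.30 in Col and 0.10 in Rsch, UF3GT at 8 h in Col was -0.70, and in cold acclimated leaves Te minus Col was -0.13 for DFR and -0.55 for UF3GT and Rsch minus Col was -0.44 for UGT75C1. In the larger spike-in set UGT75C1 at 8 h in Col was 0.21, UF3GT in cold acclimated Rsch minus Col 0.14 and AT1G06000 at 1 d 0.12.

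Without single arrays the 8 h values in Col ran from -0.54 to 0.42 for DFR, -0.96 to 0.27 for UGT75C1 and -0.96 to 0.62 for UF3GT. Those at 1 d in Col ran from -1.11 to 0.11 for DFR and -1.50 to 0.26 for UF3GT. At 8 h DFR ran from -0.63 to 0.37 in Rsch and -0.0731 to 0.21 in Te, and UF3GT from -1.02 to 0.054 in Rsch and -0.47 to 0.19 in Te. In cold acclimated leaves Te minus Col ran from -0.32 to 0.64 for DFR and -0.75 to 0.83 for UF3GT, and Rsch minus Col from -0.66 to 0.57 for UGT75C1 and -1.11 to 0.48 for UF3GT. Averaged over accessions AT1G06000 ran from -0.0342 to 0.35 at 8 h and -0.46 to 0.0122 at 1 d, and HYH from -0.16 to 0.42 at 8 h.

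Arrays of different groups with the same replicate number had correlated deviations (mean r 0.21, from -0.24 to 0.61, with 128 of 177 pairs over 0.1), against -0.11 for other pairs, and each of the 34 arrays correlated best with its own number, which is a hint from the data and not from the design. Deviations cancel within a group, so the negative mean of other pairs follows from the positive one and is no separate evidence. Since not every pair passed 0.1, the numbers were not taken to pair the samples. With the replicate block the probe sets called at 8 h were 2245, against 1352 without it, and 2741 with accession and replicate as a random block. They were 2425 with the block and without the 2 doubted Te arrays, 2083 with array weights, and 726 to 1543 without single arrays. The block turned DFR at 8 h in Col to -0.23 and UF3GT there to -0.31, the random block to -0.20 and -0.33, and the block without the Te arrays to -0.26 and -0.34, with AT1G06000 at 1 d at 0.089. The block changed no call of the 4 genes averaged over accessions against cold acclimated leaves, and among the other comparisons of the 4 genes it added those of UGT78D1 from 1 d to 3 d (-0.58, adjusted p = 0.03114) and UGT75C1 in Te at 1 d (-2.16, adjusted p = 0.03636). With the block and without the 2 doubted Te arrays, UF3GT passed from 1 d to 3 d (-0.96, adjusted p = 0.04759), and DFR at 3 d passed in Te (-1.74, adjusted p = 0.01051) and in Col (-1.68, adjusted p = 0.01204). With the random block UGT75C1 passed from 1 d to 3 d (-1.22, adjusted p = 0.02986). Centring each array on its median gave 23 genes with a UGT symbol higher at 3 d, against 13.

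Depth of signal limits UGT78D1, most of whose 3 d arrays lie under the 40th percentile, and BAN on nearly all arrays. With 2 or 3 arrays a group, the SE of a change within an accession was 0.67 to 0.78 for DFR, UF3GT and UGT75C1, so only large changes could pass there.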

Other observations

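Several of the genes with profiles most like those of the 4 flavonoid genes have no name in the annotation used here. Averaged over accessions at 3 d against cold acclimated leaves, AT5G59670 had a log2 change of -2.22 ± 0.31 (SE; limma adjusted p = 4.372e-06) and AT4G30993 one of -1.81 ± 0.18 (adjusted p = 6.546e-08). AT5G02710 changed by -1.18 ± 0.16, AT2G28310 by -0.92 ± 0.10, AT1G19485 by -0.84 ± 0.10 and AT2G32160 by -0.78 ± 0.15, all with an adjusted p of at most 0.00032. They were picked for their likeness over the same group means, so these values describe them and are no separate evidence.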
